A study of Mus musculus with 18 samples.

Results

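The CNC and small Maf transcription factors and their BACH relatives are represented here by 7 genes, Nfe2, Nfe2l1, Nfe2l2, Mafk, Mafg, Bach1 and Bach2, of 21938 protein-coding genes in the annotation. They were chosen by name as members of 1 protein family. The rule used no measured value, but the choice was made with earlier results of these data known. All 7 were found in the gene models. For each, the peaks of 2 histone marks were read in all 8 deposited lists from 10 kb before the gene to 10 kb past it, a span called the locus below, and promoter and distal peaks were kept apart. H3K4me3 marks mostly promoters, whereas H3K27ac marks active enhancers as well as active promoters.

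The cells came from the bone marrow of adult male C57BL6 mice with no added treatment or engineered allele. Erythroblasts (ERY), the nucleated precursors of red cells, were sorted as Ter119+ CD44+ FSCLow, and immature megakaryocytes (iMK), from which platelet-forming cells arise, as CD41+ CD61+ Ter119- Sca1- cKit-. Both gates left out cells with CD4, CD8, IL7Ra, CD11b, Ly6g or CD45R. Each mark had 2 libraries per cell type. The H3K27ac lists held 21768 to 25750 peaks. They covered more in ERY, 77.1 and 64.9 Mb, than in iMK, 42.9 and 53.2 Mb. Their mean peak widths were 2992 and 2980 bp in ERY against 1873 and 2147 bp in iMK. The H3K4me3 lists held 6275 to 13222 peaks covering 9.02 to 33.8 Mb. The longest H3K4me3 list, that of iMK replicate 2, stood apart, with 33.8 Mb against 11.3 Mb in iMK replicate 1. The erythroid markers bore out the ERY label: 6 of 6 had H3K27ac peaks in both ERY libraries, against 3 in each library labelled iMK. The megakaryocyte markers did not bear out the iMK label, and by summed H3K27ac coverage they were higher in ERY. The summed H3K27ac coverage of 10 megakaryocyte marker loci (percent of locus, added over genes) was 185.5 and 179.8 in ERY against 35.2 and 54.4 in the libraries labelled iMK. By the number of these loci with an H3K27ac peak the order was the other way, 5 in each ERY library against 6 and 7. Their summed H3K4me3 coverage overlapped, at 30.58 and 15.26 in ERY against 14.96 and 63.62 in the libraries labelled iMK. The gate marker gene Itga2b (CD41) had no H3K27ac peak in either library labelled iMK (0%) but covered 16.8% and 3.802% in ERY, Pf4 had none in any of the 4, and Itgb3 (CD61) had 5.82% and 8.73% of its locus covered. The summed H3K27ac coverage of 8 myeloid marker loci was 194.3 and 326.4 in those libraries against 2.005 and 1.504 in ERY. For that reason the libraries are called by their label, "labelled iMK", throughout.

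The family works through pairs of basic leucine zipper proteins. A small Maf protein such as MAFK or MAFG has no activation domain of its own and can bind DNA as a member of a heterodimer. Its partner is a CNC protein, of which NFE2 (the p45 subunit of the erythroid and megakaryocyte factor NF-E2), NFE2L1 and NFE2L2 mainly activate transcription, or a BACH protein, which mainly represses it. All these dimers read closely related sites built around an AP-1-like core, so an activator and a repressor can occupy the same element. In red cell precursors NF-E2 is known for binding the beta globin locus control region and BACH1 for releasing DNA when heme binds it. In megakaryocytes NF-E2 is needed for platelet release. NFE2L2 is known for the response to oxidative stress, and BACH2 for its part in lymphocytes.

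Letters close to the family's recognition sequence, with any base at the centre, occurred inside acetylated chromatin of several of its genes. These sites are shown because each is a position where a peak and a possible family site coincide. The letters searched were GCTGANTCA, where N is any base, called an NF-E2 type site, on both strands. It holds the shorter AP-1 type core TGANTCA, and a GATA site was searched as AGATAA. The search covered 200 bp windows lying over 1 kb from any protein-coding transcription start site (TSS) and under H3K27ac peaks. In the 7 loci there were 7 NF-E2 type sites in such windows, in 5 of the genes. The base at N was A in the Nfe2l2 match, T in the Nfe2 match, and C or G in the others, so matches may differ from the family's site at that base. The libraries named with each site are those with a peak over its 200 bp window. Distal refers to the window and not to the peak. The Mafk and Nfe2l2 sites, and the Bach2 site in iMK replicate 2, lie in H3K27ac peaks that reach a promoter of the gene. The Nfe2 site lies in H3K27ac peaks that reach the promoter of a neighbouring gene. The Nfe2l2 site also lies under H3K4me3 peaks. At Bach2 an ERY replicate 1 peak began at 32250001, just past the window of the site. The sites are given 5′ to 3′ from the mm10 assembly with 10 bases on each side and the match in capitals.
Mafk intron, both ERY libraries only, chr5:139799602-139799630, minus strand: agacaaggaaGCTGACTCAgtagcacttc
Mafk 3′ end, both ERY libraries only, chr5:139801642-139801670, plus strand: tcaggggcagGCTGAGTCAcagccaggca
Downstream of Mafk, both ERY libraries only, chr5:139806765-139806793, plus strand: aagctgagcaGCTGAGTCAttgacttttg
Bach2 intron, both libraries labelled iMK only, chr4:32249899-32249927, plus strand: cagtccccttGCTGACTCAtgtgccgggg
Bach1 intron, all 4 libraries, chr16:87713173-87713201, minus strand: agagggaactGCTGACTCActccctgaag
Nfe2l2 intron, all 4 libraries, chr2:75702463-75702491, plus strand: cagtgccacaGCTGAATCActctcaccat
Downstream of Nfe2, all 4 libraries, chr15:103238600-103238628, minus strand: gggtgaaaaaGCTGATTCAtttaggaggt

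Mafk carried 3 of the 7 sites, all in chromatin acetylated in both ERY libraries and in neither library labelled iMK. They lay 8.10, 10.1 and 15.3 kb from its first TSS: in an intron, in an exon annotated as untranslated, and beyond the gene in an intron of the neighbour Tmem184a. Windows with a site made up 3 of 59 (5.08%) of the distal windows of Mafk called in both ERY libraries only, beside 1.13% of 155774 such windows in the genome. Over the 7 genes the count was 3 of 213 (1.41%). In windows called in both libraries labelled iMK only it was 1 of 68 (1.47%) for the family and 1.12% in the genome, and in windows called in all 4 libraries 3 of 65 (4.62%) and 1.19%. The matches in all 4 libraries include those of Nfe2l2 and Nfe2, with A and T at the centre. The AP-1 type core did not follow this order: it was in 5 of 213 (2.35%), 7 of 68 (10.3%) and 6 of 65 (9.23%) of the family's windows in the same sequence of classes, beside 6.29%, 7.14% and 6.36% in the genome. The GATA site was in 22 (10.3%), 5 (7.35%) and 9 (13.8%), beside 12.8%, 9.86% and 10.5%. The sites are few, so these shares are descriptions. A match is a run of letters and not a measured binding site.

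The 200 bp window around the farthest Mafk site is shown whole because it lies beyond the end of the gene, inside the wide erythroid domain described below. The capitals mark the NF-E2 type site, and the window had no GATA site by the letters used.
Downstream of Mafk, chr5:139806601-139806800, plus strand: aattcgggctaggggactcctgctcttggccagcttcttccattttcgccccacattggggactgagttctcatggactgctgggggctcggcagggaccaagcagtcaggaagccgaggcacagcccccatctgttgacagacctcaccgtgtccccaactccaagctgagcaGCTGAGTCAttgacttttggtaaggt

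The promoters at the first TSS held none of the NF-E2 type sites. In the 300 bases from 250 before to 50 after the first TSS of each of the 7 genes, the NF-E2 type site, the AP-1 type core and the GATA site each had 0 matches, beside 1.19%, 7.81% and 11.2% of 32851 RefSeq promoters of that length with at least 1. With 7 stretches, 0 matches cannot be set apart from these shares. These stretches were rich in G and C, from 60.3% in Nfe2l1 to 74% in Bach2, and their CpG dinucleotides numbered from 7 in Nfe2 to 46 in Bach2. The Bach2 promoter is printed because it was the only one of the 7 called under 1 label alone.
Bach2, 250 bases before the first TSS, chr4:32238554-32238803, plus strand: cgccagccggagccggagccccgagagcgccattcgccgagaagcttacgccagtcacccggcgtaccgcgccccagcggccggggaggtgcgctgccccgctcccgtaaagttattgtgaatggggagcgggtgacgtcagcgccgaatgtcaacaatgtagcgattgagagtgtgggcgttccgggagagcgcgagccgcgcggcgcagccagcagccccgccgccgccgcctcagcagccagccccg
The same 300 bases were searched at all 41 annotated starts, after the distal sites had been seen. NF-E2 type sites lay only before an internal start of Mafg, 3452 bp from the first, and an internal start of Bach2, 262701 bp in. Of all RefSeq promoters, 1.19% held such a site. At Mafg 1 stretch matched on both strands. The window of that start was called for both marks in all 8 libraries. The Bach2 start was called for neither mark in any library. Beyond these sites, the AP-1 type core was at the Bach1 starts 20 and 59 bp from the first and the Bach2 start 336127 bp in. The GATA site was at the Nfe2 starts 6716 and 6727 bp in. The Mafg site on the strand of the gene is shown with 10 bases on each side.
Mafg, before the internal start, chr11:120630200-120630228, minus strand: gaggcgatccGCTGAGTCAgcatgactcg

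H3K27ac differed between ERY and the libraries labelled iMK at 4 of the 7 genes. Nfe2, Mafk and Bach1 had more of their locus under H3K27ac peaks in ERY, Bach2 had more in the libraries labelled iMK, and Nfe2l1, Nfe2l2 and Mafg did not pass the test. Coverage is the percent of the bases of a locus that lie under the peaks of a library, and each difference is the ERY mean less the mean of the libraries labelled iMK, in percentage points, with limma's standard error (SE) and an adjusted p over all 14467 genes with a peak. The threshold was an adjusted p of 0.05. Of all genes, 22.0% passed with more coverage in ERY and 17.2% with more in the libraries labelled iMK, beside 3 and 1 of the 7 members. The median difference was 16.9 points over the 7 members and 0.60 over all genes. In a sorted population, a smaller share of cells with a mark and less of the mark per cell cannot be told apart. Only 2 libraries stood on each side, and a two-sided exact permutation test of 2 against 2 could not go below 0.333.

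**Figure D1:**
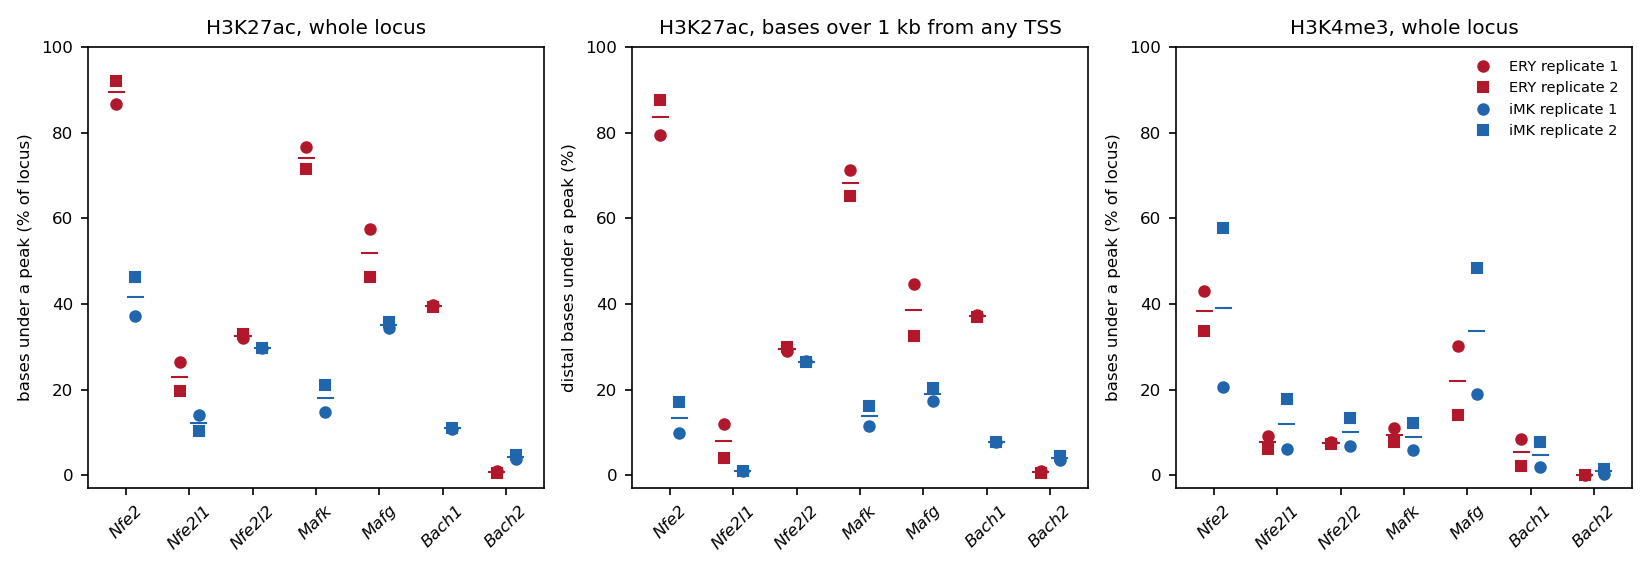
Percent of bases under peaks in the 7 loci, as 1 point per library (circle, replicate 1; square, replicate 2; line, mean of 2), for H3K27ac over the whole locus, H3K27ac over bases more than 1 kb from any TSS, and H3K4me3 over the whole locus. For Nfe2, Mafk and Bach1 both ERY points lie far above both points labelled iMK in the H3K27ac panels, whereas H3K4me3 points of the cell types are mixed and iMK replicate 2 is the higher of its pair for every gene.

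The widest acetylation of the family lay over Nfe2, on chromosome 15 from 103248212 to 103258403 on the minus strand. H3K27ac covered 86.7% and 92.0% of its 30.2 kb locus in ERY against 37.1% and 46.3% in the libraries labelled iMK. Both ERY values were above both others, and all 4 ranked Nfe2 first among the 7 genes, at percentiles 99.6, 99.86, 99.26 and 99.43 of all protein-coding genes. The difference was 47.7 points (SE 4.64, adjusted p = 0.0107, limma). In ERY a single peak of 19.8 kb (replicate 1) or 19.2 kb (replicate 2) ran through the gene, with folds over control of 6.80 and 6.30. In iMK replicate 1 the same stretch held separate promoter peaks of 4.6 and 2.6 kb, and in iMK replicate 2 a peak of 9.2 kb. The bases called in both ERY libraries and in neither other library came to 11.6 kb, all of them distal. They included 4.6 kb upstream of the gene (103261001 to 103265600) and 2.8 kb over its 3′ end (103247601 to 103250400). The locus also holds parts of Cbx5 and Hnrnpa1, and the downstream site printed above lies in an intron of Cbx5. The call was lost without ERY replicate 1 (adjusted p = 0.0896), without ERY replicate 2 (0.0917) or without iMK replicate 1 (0.0563), and with quantile normalization, which gives all libraries 1 distribution, where the difference fell to 10.3 points (0.126).

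Nfe2 is annotated with 10 start sites, and its H3K4me3 was not centred on the first. The window of 1 kb on each side of the first TSS was called for H3K4me3 in both ERY libraries and iMK replicate 2 but not in iMK replicate 1. The other starts, from 2964 to 6938 bp further in, were called in all 4 libraries. H3K4me3 covered 43.0% and 33.8% of the locus in ERY against 20.5% and 57.6% in the libraries labelled iMK, so that the ERY values lay between the others. In each library Nfe2 was above 99.8% or more of genes in H3K4me3 coverage, and its widest promoter peak was 6.0, 6.2, 2.6 and 12.2 kb long in ERY replicates 1 and 2 and iMK replicates 1 and 2. The coverage also counts a downstream region, 103237801 to 103243600, that touches the promoter of a neighbouring gene.

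Mafk, 1 of the small Maf partners, showed the largest difference of the 7 genes in coverage of the whole locus. The gene lies on chromosome 5 from 139791513 to 139802653 on the plus strand. H3K27ac covered 76.6% and 71.5% of its locus in ERY against 14.8% and 21.2% in the libraries labelled iMK, with no overlap (difference 56.0 points, SE 3.93, adjusted p = 0.00739, limma). The promoter peak ran for 19.4 and 18.2 kb in ERY and for 4.6 and 6.6 kb in the libraries labelled iMK. The peaks began between 139789401 and 139790801, ahead of the first TSS, and differed mainly in where they ended, at 139808800 and 139809000 in ERY and at 139795400 and 139797200 in the libraries labelled iMK. From 139797201 to 139808800, 11.6 kb were called in both ERY libraries and in neither other, running from within the gene past its end into Tmem184a, and a further peak followed from 139809401 to the edge of the locus and beyond. The 3 NF-E2 type sites lie in the first of these stretches. The fold over control was not higher where the peak was wider: 8.9 and 5.17 in ERY against 10.6 and 11.5 in the libraries labelled iMK, where the median fold of a list was 3.06 and 2.77 in ERY and 5.79 and 5.65 in the others. Since Tmem184a and Gm26938 share the locus, the acetylation cannot be assigned to Mafk alone. The call was lost without ERY replicate 1 (adjusted p = 0.0616) or ERY replicate 2 (0.0513), and with quantile normalization the difference fell to 33.2 points with the call kept.

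The internal Mafk start, 6001 bp in, had no H3K4me3 call in any library. It was called for H3K27ac in both ERY libraries and in iMK replicate 2. H3K4me3 covered 10.9% and 7.71% of the locus in ERY against 5.78% and 12.2% in the libraries labelled iMK, which overlap. All H3K4me3 peaks of the locus lay between 139790801 and 139794600. They included the promoter peaks and a peak of 1.2 kb in ERY replicate 2, centred 2.09 kb past the first TSS.

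Mafg, the other small Maf partner here, lies on chromosome 11 from 120625117 to 120633600 on the minus strand, among Pcyt2, Sirt7 and Pycr1. H3K27ac covered 57.6% and 46.3% in ERY against 34.4% and 35.8% in the libraries labelled iMK. The groups did not overlap, but the ERY libraries lay well apart (SD 7.94, n = 2), and the difference of 16.9 points did not pass (SE 4.99, adjusted p = 0.0825, limma). Without ERY replicate 2 it did (22.5 points, adjusted p = 0.0408), and with quantile normalization the direction turned (-11.0 points, adjusted p = 0.0667). Of the bases called, 9.2 kb were common to all 4 libraries, and 1.8 kb were called in both ERY libraries only. H3K4me3 covered 30.2%, 14.0%, 18.96% and 48.4% in ERY replicates 1 and 2 and iMK replicates 1 and 2, again without separation, and Mafg ranked second to Nfe2 in every one of these libraries. This coverage counts peaks at promoters of neighbouring genes as well as those of Mafg.

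**Figure D2:**
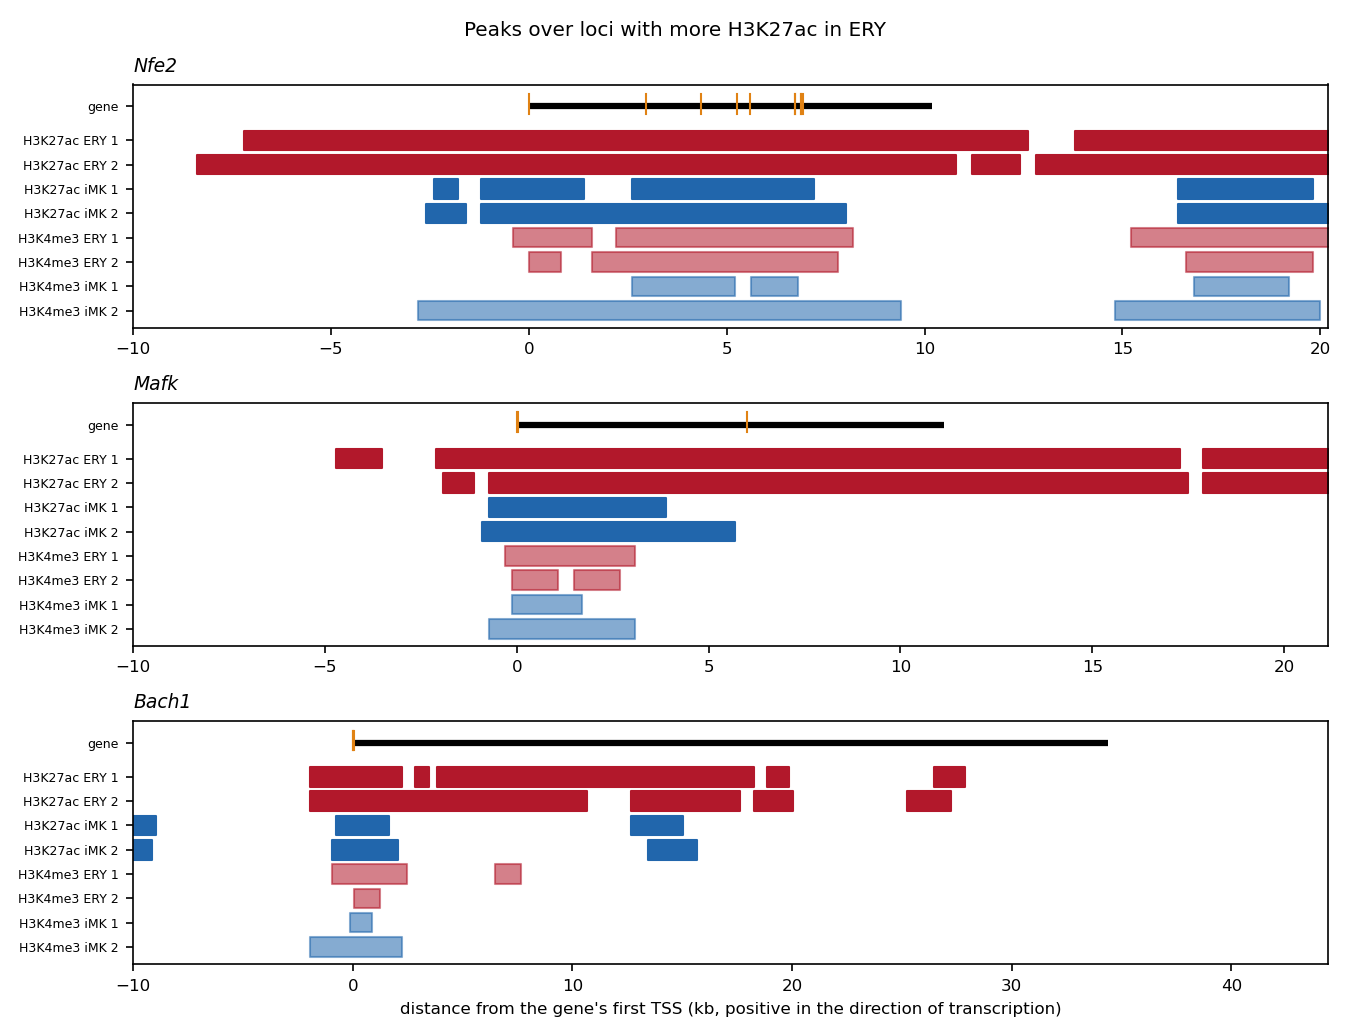
Peaks of both marks over the loci of Nfe2, Mafk and Bach1, 1 row per library (red, ERY; blue, labelled iMK; paler, H3K4me3), against distance from the first TSS in kb in the direction of transcription; the black bar is the gene, orange ticks are annotated starts, and the view ends 10 kb outside the gene. H3K27ac peaks reach far beyond the promoter in both ERY libraries, to 19.8 kb in Nfe2 and 19.4 kb in Mafk, whereas those labelled iMK stay mostly near the starts.

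Bach1, the heme-sensing repressor, had the steadiest difference. It lies on chromosome 16 from 87698945 to 87733346 on the plus strand, with no other protein-coding gene in its locus. H3K27ac covered 39.7% and 39.3% of the 54.4 kb locus in ERY against 10.8% and 11.1% in the libraries labelled iMK. The replicates agreed closely within each cell type, and the groups did not overlap (difference 28.6 points, SE 1.69, adjusted p = 0.0065, limma). The call held in all 9 alternatives, with differences from 17.8 to 28.8 points (locus with 25 kb on each side, 17.8 points; quantile normalization, 18.0 points) and adjusted p from 0.00533 to 0.0335. The bases called in both ERY libraries only came to 12.4 kb, of which 12.3 kb were distal, and included 6.8 kb in the intron just past the promoter (87702801 to 87709600). A stretch of 0.856 kb at the upstream edge of the locus was called in both libraries labelled iMK only. At the promoter the fold ran the other way from the width: 5.87 and 3.45 in ERY with peaks of 4.2 and 12.6 kb, and 18.7 and 16.3 in the libraries labelled iMK with peaks of 2.4 and 3.0 kb. Folds of the 2 cell types come from lists with different medians, and by rank within the list the promoter peak stood above 87.2%, 66.98%, 93.7% and 93.9% of peaks.

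H3K4me3 at Bach1 was narrow, with 8.46% and 2.21% of the locus in ERY against 1.84% and 7.72% in the libraries labelled iMK. The promoter was called in all 4. When a peak had to cover at least 0.5 of the promoter window, the call remained in 3 libraries. ERY replicate 1 had an additional H3K4me3 peak of 1.2 kb in the intron, 7.06 kb from the TSS, that no other library shared.

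Bach2, the other BACH repressor, was the reverse of Bach1. It lies on chromosome 4 from 32238804 to 32586108 on the plus strand, in a locus of 367.3 kb with no other protein-coding gene. H3K27ac covered 1.03% and 0.545% of it in ERY against 3.81% and 4.74% in the libraries labelled iMK, without overlap (difference -3.48 points, SE 0.485, adjusted p = 0.0196, limma). The percentages are small because the locus is long: 11 kb were called in both libraries labelled iMK and in neither ERY library, 2.0 kb in both ERY libraries only, and 0 kb in all 4. The call was lost when any 1 of the 4 libraries was left out (adjusted p from 0.0565 to 0.125), with the direction kept in all 9 alternatives.

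Bach2 was also the only member with a promoter called under 1 label alone. For both marks the window of its first TSS was called in both libraries labelled iMK and in neither ERY library. The H3K27ac promoter peak spanned 32238401 to 32239800 in both, with folds of 9.46 and 8.92, and the H3K4me3 peaks were 1.4 and 2.4 kb wide with folds of 6.56 and 3.75. In the wider window of 2.5 kb on each side of a start, an H3K27ac peak of ERY replicate 1 near the internal start 8960 bp in also counted, which left the call in 3 libraries. Beyond the promoter, 7 distal H3K27ac regions in the introns of Bach2 were called in both libraries labelled iMK only, from 42.2 to 326.2 kb past the first TSS. The exception was an intronic region 98.7 kb in, 32336201 to 32338800, called in both ERY libraries alone with folds of 2.32 and 2.22. The starts 178631, 262701 and 336127 bp in were called for neither mark in any of the 8 libraries. The same libraries had H3K27ac peaks at 7 and 8 of the 8 myeloid marker loci, against 1 in each ERY library, and at 4 of 6 lymphoid marker loci, against 1. The part of such cells in the Bach2 result was not tested.

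**Figure D3:**
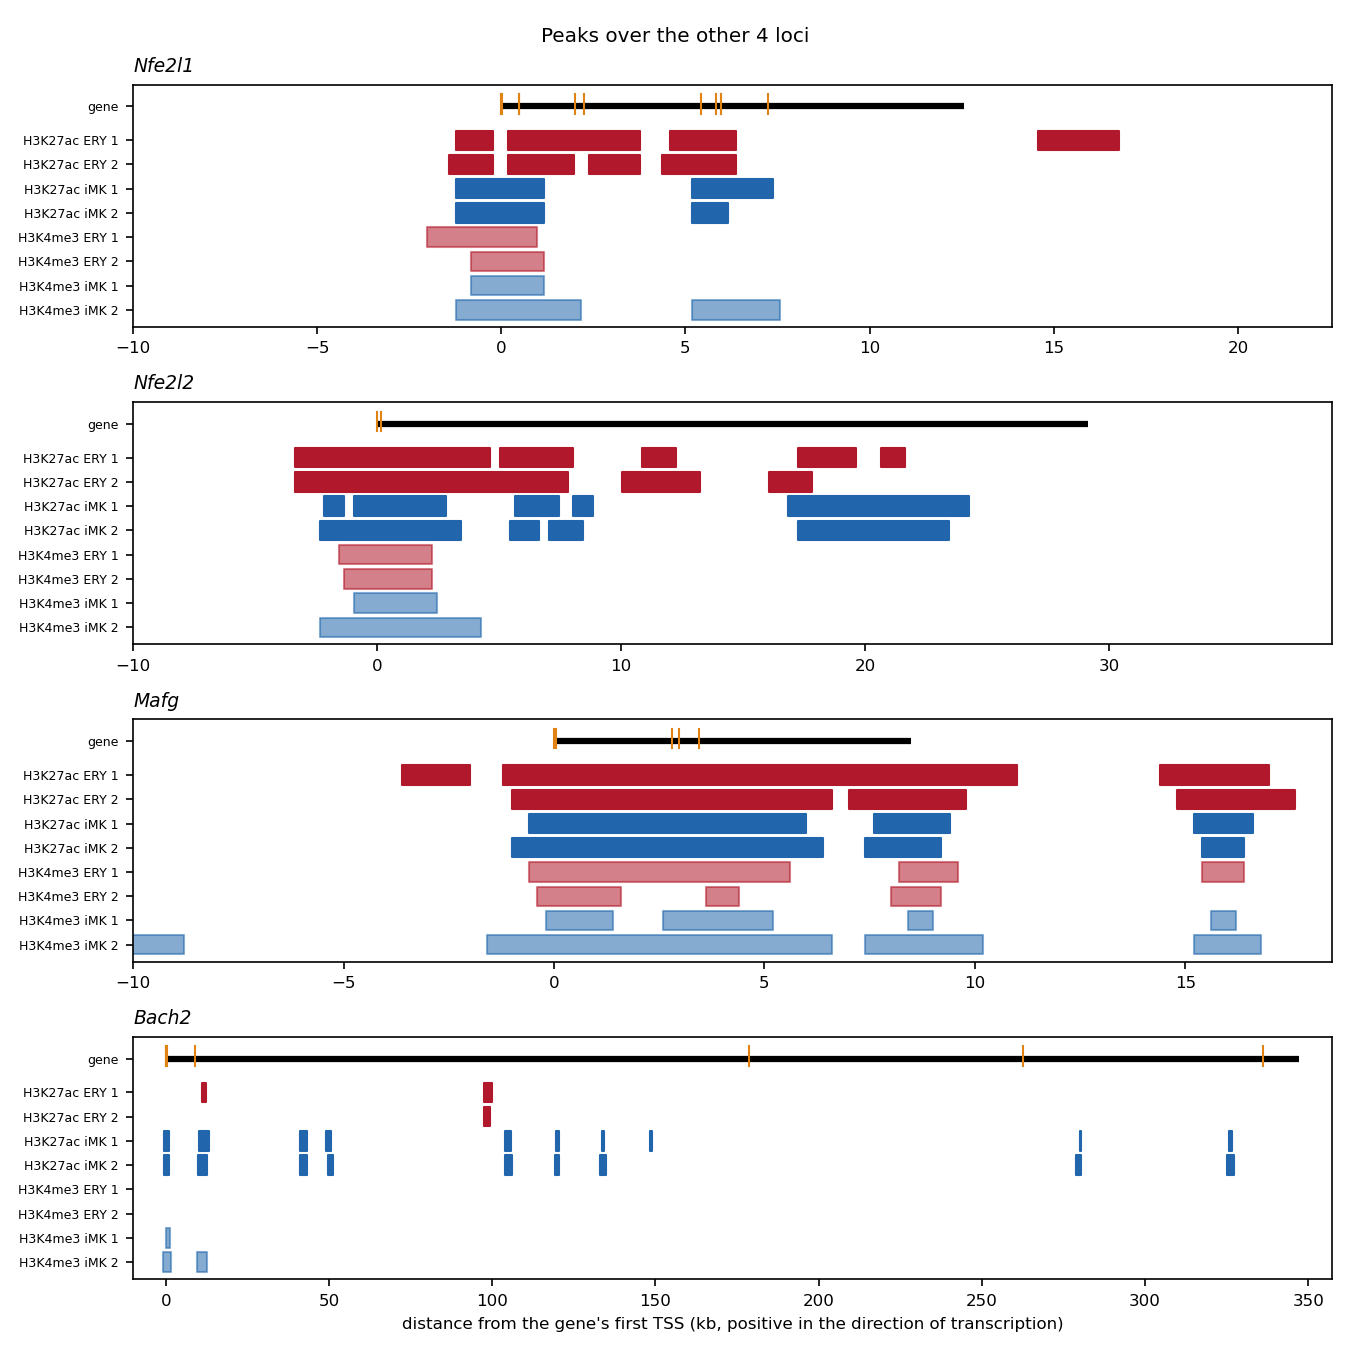
Peaks of both marks over the loci of Nfe2l1, Nfe2l2, Mafg and Bach2, drawn as in the maps of Nfe2, Mafk and Bach1, with a scale of its own for each gene. Nfe2l1, Nfe2l2 and Mafg have H3K27ac at the promoter in all 4 libraries, whereas at Bach2 the promoter and 7 intronic regions are called only in the libraries labelled iMK and a region at 98.7 kb only in ERY.

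Nfe2l2 encodes the oxidative stress factor NRF2 and was acetylated to nearly the same extent in both cell types. The gene lies on chromosome 2 from 75675513 to 75704641 on the minus strand, with Hnrnpa3 in its locus. H3K27ac covered 32.2% and 33.0% in ERY against 29.7% in both libraries labelled iMK, a difference of 2.85 points that did not pass (SE 1.95, adjusted p = 0.324, limma). The extent was close but the places differed: 4.0 kb were called in both ERY libraries only, 3.2 kb in both libraries labelled iMK only, and 6.6 kb in all 4. The longest stretches of the libraries labelled iMK lay in the intronic region from 75680401 to 75688600, where their peaks were 7.4 and 6.2 kb wide, whereas ERY had shorter peaks there. The longest ERY stretches lay 11.5 and 4.04 kb inside the gene and 2.86 kb upstream. With quantile normalization the direction turned and passed the threshold (-17.0 points, adjusted p = 0.036).

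The Nfe2l2 promoter had some of the highest folds in each H3K27ac list. They were 10.1 and 5.39 in ERY against 23.9 and 25.3 in the libraries labelled iMK, above 98.4%, 90.3%, 97.1% and 98.9% of the peaks of each list. H3K4me3 covered 7.73%, 7.33%, 6.92% and 13.4% of the locus, with the last from iMK replicate 2. The NF-E2 type site printed above lies in the first intron, 2.17 kb from the TSS, in a window acetylated in all 4 libraries.

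Nfe2l1, whose product controls proteasome genes, lies on chromosome 11 from 96817414 to 96829968 on the minus strand, next to Cbx1. H3K27ac covered 26.4% and 19.7% in ERY against 14.1% and 10.4% in the libraries labelled iMK. The groups did not overlap, and the difference of 10.8 points did not pass (SE 3.32, adjusted p = 0.0893, limma). In the bases over 1 kb from any TSS the coverage was 12.1% and 4.08% in ERY against 0.948% in both libraries labelled iMK. H3K4me3 covered 9.21%, 6.14%, 6.14% and 17.8%. Its starts from 2249 to 7243 bp inside the gene were called for H3K4me3 only in iMK replicate 2, the library with the longest list.

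Promoters and distal bases were then compared for the whole family. At least 1 promoter window was called for H3K4me3 in all 4 libraries for 6 of 7 members, where 24.6% of all protein-coding genes had such a call, and for H3K27ac also for 6 of 7, where 36.0% had one. Bach2 was in the class called in both libraries labelled iMK only, which held 4.89% of genes for H3K4me3 and 8.56% for H3K27ac. The first TSS of Nfe2, Mafk and Bach1 was called for H3K27ac in all 4 libraries. The bases called in both ERY libraries only were distal in full for Nfe2 and nearly so for Bach1, whereas 3.55 of the 15.65 kb of Mafk lay in promoter windows, which include those of its internal start and of neighbouring genes.

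The distal part of the loci carried the same differences. Over bases more than 1 kb from any protein-coding TSS, 24.8% of 13262 genes passed with more H3K27ac in ERY and 13.7% with more in the libraries labelled iMK, beside 3 and 1 of the 7 members. After quantile normalization, 2725 genes passed with more in ERY and 2532 with more in the libraries labelled iMK, against 3292 and 1822 without it. For Nfe2 the distal coverage was 79.5% and 87.7% in ERY against 9.83% and 17.1% (difference 70.2 points, SE 4.80, adjusted p = 0.0126, limma). For Mafk it was 71.2% and 65.2% against 11.6% and 16.1% (54.4 points, SE 3.57, adjusted p = 0.0122). For Bach1 it was 37.3% and 37.0% against 7.74% in both libraries labelled iMK (29.4 points, SE 1.53, adjusted p = 0.0113). These activator, partner and repressor genes thus showed the same direction. The distal coverage of Bach2 was 1.06% and 0.56% against 3.53% and 4.44% (-3.17 points, SE 0.571, adjusted p = 0.0347). Without iMK replicate 1 or 2 the distal calls of Nfe2 (adjusted p = 0.0589 and 0.053), Mafk (0.0562 and 0.0518) and Bach2 (0.0673 and 0.0917) were lost, and that of Bach1 was kept. Leaving out either ERY library also ended the distal call of Bach2 (0.131 and 0.149), as did fitting genes without any peak as well (0.12).

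**Figure D4:**
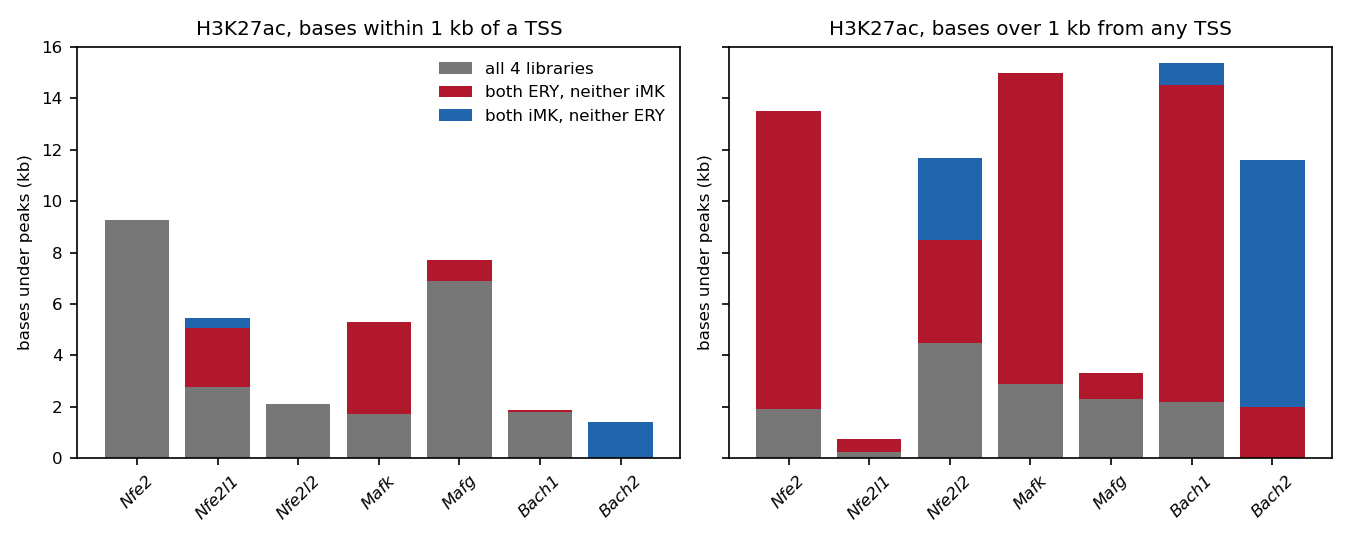
Kilobases under H3K27ac peaks in the 7 loci, stacked by the libraries that called them (grey, all 4; red, both ERY and neither iMK; blue, both iMK and neither ERY), for bases within 1 kb of a protein-coding TSS and for bases farther away. The red part is largely distal, with 11.6 kb in Nfe2, 12.1 kb in Mafk and 12.3 kb in Bach1, and Bach2 has 9.6 kb of blue distal bases and no grey.

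The peaks of the 7 loci were few enough to be counted whole. The 8 lists held 145 of them, 21 to 28 per H3K27ac list and 11 to 13 per H3K4me3 list. Joined over the libraries of a mark, the distal H3K27ac peaks made 4 regions called in both ERY libraries only, 8 in both libraries labelled iMK only, 1 shared by all 4 and 4 without replication. Of the 8, 7 were in Bach2 and the other lay upstream of Bach1. The count of regions ran against the count of bases. The Bach2 locus of 367.3 kb gave most of the 8. Much of the erythroid acetylation of Nfe2, Mafk and Bach1 was joined into single regions with the promoter, though Bach1 also gave 2 of the 4.

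No member passed the test for H3K4me3. Of 13561 genes 0% passed in either direction, and at an unadjusted p under 0.05 there were 64 with more in ERY and 418 with more in the libraries labelled iMK, none of them a member. Adjusted p of the 7 ran from 0.787 to 1 (limma). For 6 of the 7 the libraries of the cell types overlapped. The exception was Bach2, at 0% and 0% in ERY against 0.381% and 1.52% in the libraries labelled iMK. Without iMK replicate 1, 4099 genes passed with more in the remaining library labelled iMK, Nfe2l2 (-5.90 points, adjusted p = 0.0482) and Bach2 (-1.52 points, 0.00125) among them. That comparison sets the 2 ERY libraries against iMK replicate 2 alone, the list that stands apart, and takes its spread from the ERY pair, so these p-values hold only if the lone library varies as that pair does.

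Genes related to the family by role were read from lists. Of 6 other CNC and Maf genes, 4 had any H3K27ac peak, and 0 passed with more in ERY and 2 with more in libraries labelled iMK. Maff, another small Maf gene, was among the latter, with 9.24% and 11.1% in the libraries labelled iMK (adjusted p = 0.00931) and listed at 0% in both ERY libraries. The median over the 4 was -6.64 points. Of 12 genes that control the stability or processing of CNC and BACH proteins, 3 passed with more in ERY and 0 with more in the libraries labelled iMK. Over all genes 22.0% and 17.2% passed in these directions, and counts so small cannot be set apart from these shares. The 3 were Ngly1, an enzyme that processes NFE2L1 (14.6 points), Keap1, the adaptor that marks NFE2L2 for degradation (10.8 points), and Btrc, part of another ubiquitin ligase (9.77 points). The list median was 7.29 points. For Keap1 the coverage was 23.6% and 23.0% against 12.8% and 12.2%, without overlap.

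Known targets of the dimers were divided by pathway. Of 19 antioxidant, heme and iron genes, 9 passed with more in ERY and 2 with more in the libraries labelled iMK, with a median of 7.17 points. Over all genes 22.0% and 17.2% passed in these directions. After quantile normalization the counts were 6 and 5, and with a q-value of at most 1e-10 they were 5 and 2. The largest in ERY were Fth1, the ferritin heavy chain (42.9 points), Blvrb, a biliverdin reductase (35.6), Taldo1 (31.1) and Tkt (29.3), both of the pentose phosphate pathway. Of the same pathway, and named after their values were seen, Pgd had 3.26% and 0% in ERY against 26.1% and 50.03% in the libraries labelled iMK (-36.4 points, adjusted p = 0.0669) and G6pdx differed by 0.50 points (adjusted p = 0.751), neither passing. Those with more in the libraries labelled iMK were Gsr, glutathione reductase (-23.3), and Slc7a11, the cystine transporter (-1.72). Hmox1, the heme oxygenase gene repressed by BACH1, had 22.9% and 19.2% in ERY against 25.2% and 23.0% in the libraries labelled iMK and did not pass (adjusted p = 0.366). All 7 globin and heme synthesis genes passed with more in ERY, with a median of 56.3 points. Among them were Hba-a1 (99.05 points), Hba-a2 (82.5) and Hbb-bs (56.6), Hba-a1 and Hba-a2 being near-identical copies.

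Of 5 listed targets of NF-E2 in megakaryocytes, 4 had a peak. So few cannot be set apart from the 22.0% and 17.2% over all genes. None passed with more acetylation in the libraries labelled iMK. Only Rab27b, a regulator of platelet granules, passed with more in ERY, with 3.07% and 2.85% against 0% in both libraries labelled iMK (2.96 points, adjusted p = 0.00693). Tubb1, the platelet tubulin, had 53.0% and 27.9% in ERY against 3.33% and 5.54% and did not pass (adjusted p = 0.0736). Of the megakaryocyte markers, 4 of 8 with a peak passed with more in ERY (Gp9, Gp1ba and Vwf among them) and 1, Itgb3, with more in the libraries labelled iMK. The lists were fitted with all genes, and their counts stand beside the 22.0% and 17.2% given above. They moved when a library was left out. The antioxidant, heme and iron genes with more in ERY then numbered 4, 5, 4 and 3 (without ERY replicates 1 and 2 and iMK replicates 1 and 2), and those that control the proteins 5, 6, 1 and 1. Those with more in the libraries labelled iMK numbered 0, 0, 4 and 3 for the former list and 0, 0, 1 and 0 for the latter.

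**Figure D5:**
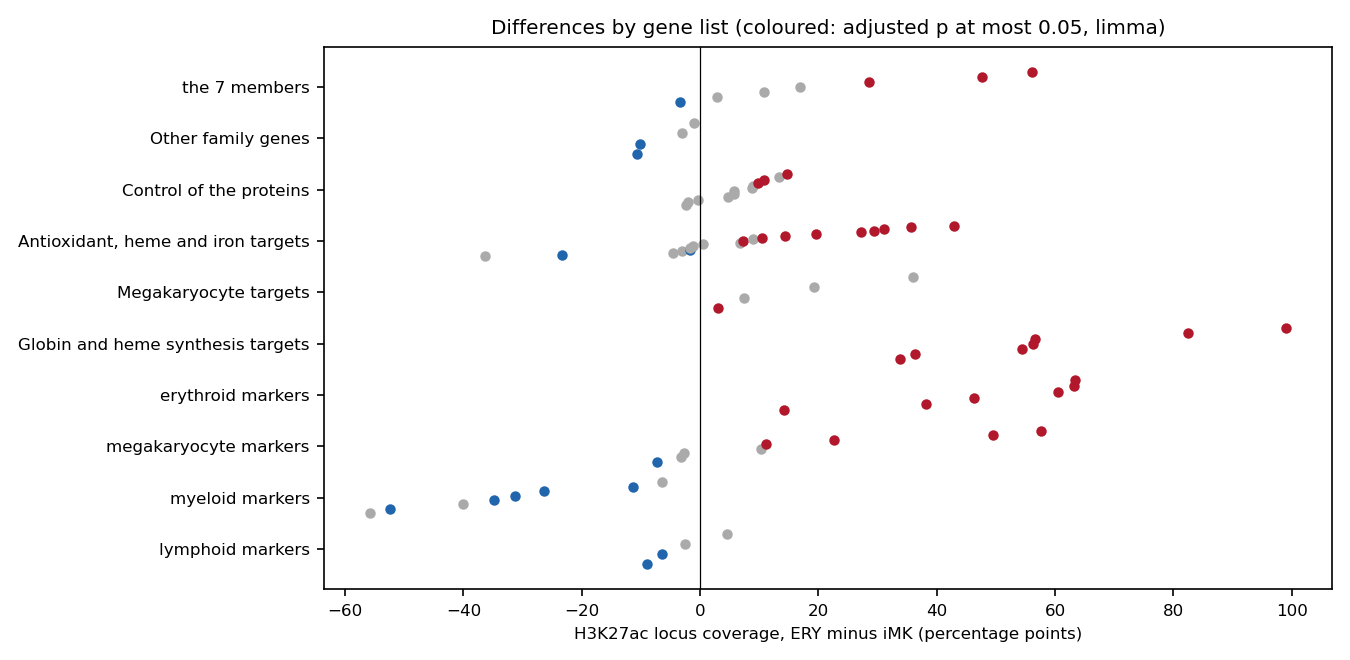
H3K27ac locus coverage in ERY minus that in the libraries labelled iMK, in percentage points, with 1 point per gene in the 7 members and in each gene list (red or blue, adjusted p of at most 0.05 by limma; grey, not passing; genes without any peak left out). The members spread from Bach2 at -3.48 to Mafk at 56.0, the globin and heme genes all lie to the right, and 5 of 8 myeloid markers pass to the left.

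The genes most like each member over the 8 libraries were found by the Euclidean distance of their coverage in percentage points. For Nfe2 they were the histone genes Hist1h4f (14.8 points), Hist1h3f (22.3) and Hist2h3c1 (22.9). Mafk was closest to 6030468B19Rik (9.58), Ankrd9 (9.82) and Eef2k (9.83), and Bach1 to Eif2s1 (5.06), Leprot (6.04) and Clcn2 (6.28). Ankrd9 had 71.1% and 69.6% H3K27ac in ERY against 12.7% and 25.3% in the libraries labelled iMK, a pattern like that of Mafk. Nfe2l2 was closest to Lefty2 (6.42), Elf1 (9.999) and Pxt1 (10.2), Nfe2l1 to Tsc22d4 (4.33), Phrf1 (5.001) and Cactin (5.65), and Mafg to Akt1s1 (11.1), Stk16 (11.3) and Trmt1 (12.7). Bach2 was closest to Ptpro (0.857), Gnaq (1.20) and Cubn (1.27), where distances are small because coverage is low. No member was among the 3 nearest genes of another.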

How the data were processed

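The authors called peaks in each library separately. In the submitters' notes on processing the names Bowtie 1.0.0, SICER 1.1 and mm10 appear with no role, and the study's general methods name Bowtie and MACS. Every peak began and ended on a 200 bp grid. The authors deposited 3 values with every peak, the fold over control (a ratio), the p-value and the q-value, with every q-value under 0.01. Folds and q-values were used only to describe or select peaks. The 10 input libraries (no antibody) were not used. The lists hold no read depth, so depth is unknown and no counting interval was made. A locus at 0% is one where no peak was listed. The peaks are broad and can join neighbouring elements, so their width depends on depth and background.

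Groups came from the labels, which number no replicates; numbers follow order of submission. The methods call the replicates biological, though some were separate sorted portions of the same animals, so p-values measure the spread between these libraries, which may be technical in part.

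Genes were those of GENCODE vM21 on GRCm38, and sequence was read from the same assembly, with coordinates counted from 1; promoters of 32851 starts came from RefSeq on that assembly. A promoter window was 1 kb on each side of any annotated TSS, called when a peak shared at least 1 bp. Peaks touching a locus were joined over the libraries of a mark. Coverage was compared with limma 3.58.1 in R 4.3.3 (moderated test with trend, Benjamini-Hochberg adjustment, two-sided) per mark over genes with a peak in at least 1 of 4 libraries. Scripts used Python 3.11.15, pandas 2.3.3 and pysam 0.24.0, and the fit was tested on simulated data. Alternatives were no filter on genes without peaks, a q-value of at most 1e-10, equal numbers of peaks per list, quantile normalization, 25 kb on each side, and leaving out each library, where the spread comes from the complete pair and the lone library is assumed to vary like it; for promoter calls, windows of 2.5 kb, a peak covering at least 0.5 of the window, and the same q-value.

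The members and lists were chosen with earlier results of these data known. The 7 members are always named; of each list, up to 4 genes per direction with the largest difference among those past the threshold and without overlap between libraries, other genes being chosen after their values were seen; and for each member the 3 nearest genes by coverage. Some genes that the lists hold are not reported here by name.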

Additional observations from a re-analysis of the deposited data

How the results depend on the processing

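No paired analysis was possible because the labels number no replicates. Differences are in percentage points, and the cause of a change was not tested. For H3K27ac over the whole locus, quantile normalization left 2 members with more in ERY and 2 with more in the libraries labelled iMK, against 3 and 1, and turned the direction of Nfe2l2 (-17.0) and Mafg (-11.0). For distal H3K27ac it also gave 2 members with more in the libraries labelled iMK and turned Nfe2l2 (-21.9) and Mafg (-4.06), and with genes without a peak included that count was 0. Leaving out each library in turn gave, for the whole locus, 917 to 3276 genes with more in ERY and 754 to 3248 with more in the libraries labelled iMK, with 1 to 3 and 0 members, and, for distal bases, 1127 to 4481 and 666 to 3214 genes, with 1 to 4 and 0 members. Beyond the calls given with each gene above, distal coverage of Nfe2l1 passed without ERY replicate 1 (3.13, adjusted p = 0.00992) or 2 (11.1, 0.00456), and that of Mafg with the strict q-value (13.6, 0.0317).

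For H3K4me3 the same step gave 0 to 20 genes with more in ERY, 0 to 4099 with more in the libraries labelled iMK and 0 to 2 members in the latter direction, and without the filter 1 and 2 genes passed. Over the libraries left out, the difference ran from -19.2 to 17.9 in Nfe2, -10.1 to 1.54 in Nfe2l1, -5.90 to 0.61 in Nfe2l2, -2.89 to 3.53 in Mafk, -26.3 to 3.16 in Mafg and -2.57 to 3.68 in Bach1, changing sign in each. The direction also turned in Mafk with the strict q-value (-1.61) and 25 kb on each side (-0.33), in Nfe2 (18.2), Mafg (12.3) and Bach1 (-3.68) with equal lists, and in Nfe2 (2.49), Nfe2l1 (0.22) and Nfe2l2 (0.86) after quantile normalization. Of the promoter calls, that of Bach1 for H3K4me3 was in 3 libraries when a peak had to cover 0.5 of the window, and that of Bach2 for H3K27ac in 3 with 2.5 kb windows.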
